A study of Homo sapiens with 5 samples.

Results

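The levels of 10 genes for chromatin regulators that have been linked to drug tolerance were compared between gefitinib-resistant HCC827/GR cells and the parental HCC827 cells. The genes were KDM5A, KDM5B, KDM6A, KDM6B, EZH2, DNMT1, DNMT3A, DNMT3B, TET1 and TET2, and they were taken from the table by symbol. For each symbol the entry with the highest mean over the libraries was taken from a table of 37181 genes and assembled loci. Of the 10 symbols, 9 had an entry, each had 1, and all 9 passed the filter of a mean of at least 0.5 FPKM. DNMT1 had no entry of its own. Its transcripts were in an entry named after its neighbour S1PR2, and that entry is described apart from the 9.

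HCC827 is a human lung adenocarcinoma cell line with an activating deletion in EGFR. Whether HCC827/GR cells kept the deletion was not checked here. HCC827/GR cells (GR, replicates 1, 2 and 3) had been made resistant by stepwise exposure to gefitinib, an inhibitor of the EGFR kinase, for more than 6 months. The parental cells (GS, replicates 2 and 3) had not been selected, and GR is a single derived line, so the comparison is between these cell populations. No source states that the replicates were separate cultures, and the p-values measure the spread between these libraries, which may be technical.

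Chromatin regulators add or remove marks that help to set which genes a cell can use. KDM5 enzymes remove methyl groups from lysine 4 of histone H3, a mark of active promoters, and KDM6A and KDM6B remove those on lysine 27 of the same histone, a mark of silenced genes that EZH2 places. DNMT1 copies DNA methylation after replication, DNMT3A and DNMT3B place it anew, and TET enzymes oxidise it. In EGFR-mutant lung cancer cells, KDM5A is known for its part in a slow-cycling and reversible drug-tolerant state, which differs from stable resistance selected over months.

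None of the 9 genes with an entry of their own passed the test. The count was 0 of 9 at an adjusted p under 0.05 (limma, Benjamini-Hochberg over all 16189 entries tested), where 11.0% of all entries passed. Fold changes are on the log2(FPKM + 1) scale, GR minus GS, and FPKM is a level scaled to transcript length and to the size of the library. DNMT3B had the largest difference, with a mean of 1.33 ± 0.297 FPKM in GR (SD, n = 3) and 2.73 ± 0.270 in GS (SD, n = 2), and EZH2 came next. At an unadjusted p under 0.05 these were the 2 of 9 that passed, where 27.2% of all entries did, and in the model with a library-size covariate that the study's software uses the count was 0 of 9. The median log2 fold change of the 9 genes was -0.05, against 0.0014 over all entries, and their median size regardless of sign was 0.10, against 0.27.

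**Figure D1:**
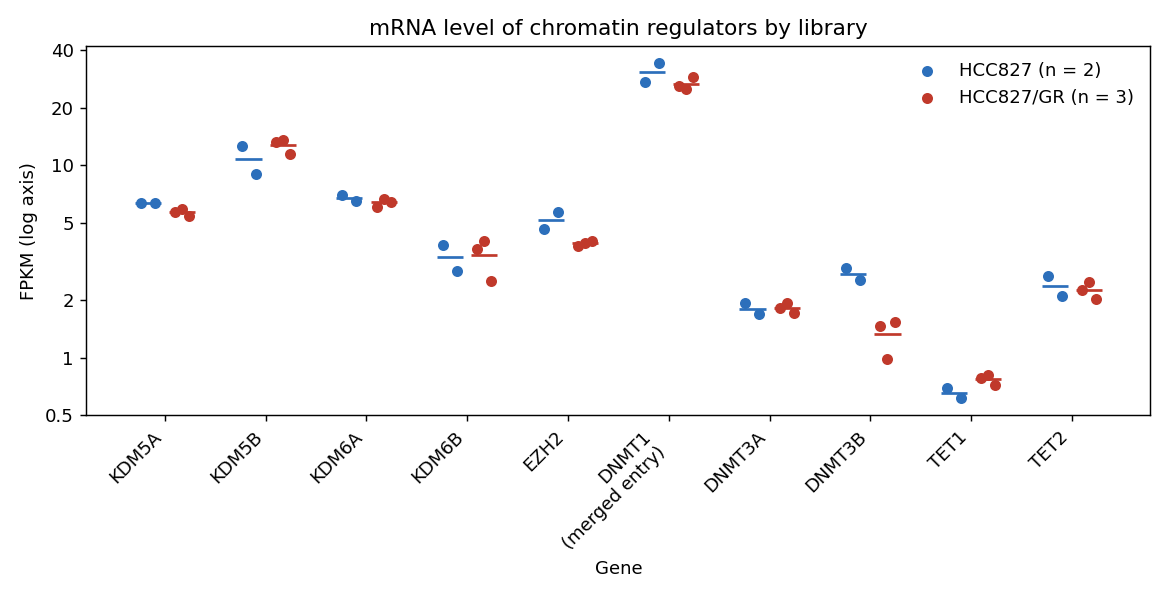
FPKM (log axis) of each chromatin regulator in each library. Points are libraries, blue for HCC827 (n = 2) and red for HCC827/GR (n = 3), and bars are group means. DNMT3B was at 0.987 to 1.54 in GR and 2.54 to 2.92 in GS, while most other genes overlap or nearly so. DNMT1 is shown by the entry it shares with S1PR2.

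Groups did not overlap for 4 of the 9 genes (44.4%), where 46.3% of all entries did not overlap. GR was lower for KDM5A, EZH2 and DNMT3B and higher for TET1. The share among the 9 genes was near that of the whole table.

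The KDM5 demethylases come first. KDM5A (chromosome 12, 280129-389454, minus strand; positions are from GENCODE 29 on GRCh38) was at 5.75, 5.94 and 5.43 FPKM in GR replicates 1, 2 and 3, and at 6.40 and 6.41 in GS replicates 2 and 3. All 3 GR libraries were below both GS libraries. The log2 fold change was -0.14 (SE 0.087, adjusted p = 0.362 by limma), and its 95% interval ran from -0.37 to 0.08, or from 0.774- to 1.06-fold. KDM5B (chromosome 1, 202724495-202809470), the paralogue with the higher level, was at 13.3, 13.5 and 11.4 FPKM in GR and 12.6 and 9.07 in GS. One GS library was within the GR values and the other below them. Its log2 fold change was 0.23 (SE 0.17, adjusted p = 0.450 by limma). This value was 0.0088 without GS replicate 3 and 0.44 without GS replicate 2, so it rests on which parental library is used.

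The KDM6 demethylases showed no separation of the groups. KDM6A (chromosome X, 44873177-45112602, plus strand) was at 6.08, 6.73 and 6.46 FPKM in GR and 7.04 and 6.54 in GS. KDM6B (chromosome 17, 7839904-7854796, plus strand) was at 3.68, 4.06 and 2.52 FPKM in GR and 3.85 and 2.81 in GS, so that the spread within each group was wider than the difference between them. The log2 fold changes were -0.07 for KDM6A (95% interval -0.31 to 0.17, adjusted p = 0.686 by limma) and 0.02 for KDM6B (-0.52 to 0.57, adjusted p = 0.959). For KDM6B the interval allows anything from 0.697- to 1.48-fold.

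EZH2, the catalytic subunit of Polycomb repressive complex 2 (PRC2), is on chromosome 7 at 148807383-148884321, minus strand. It was at 3.81, 3.97 and 4.05 FPKM in GR replicates 1, 2 and 3 and at 4.65 and 5.72 in GS replicates 2 and 3. All GR libraries were below both GS libraries, and the ratio of the means was 0.760. The log2 fold change was -0.32 (SE 0.11, 95% interval -0.61 to -0.03). By limma its p was 0.0370 unadjusted and 0.154 adjusted over all entries. It was -0.19 without GS replicate 3 and -0.44 without GS replicate 2. EZH1, the alternative catalytic subunit that is more used in resting cells, was at 4.16, 3.576 and 2.81 FPKM in GR and 2.42 and 2.11 in GS, with a log2 fold change of 0.46 (SE 0.16, adjusted p = 0.151 by limma).

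**Figure D2:**
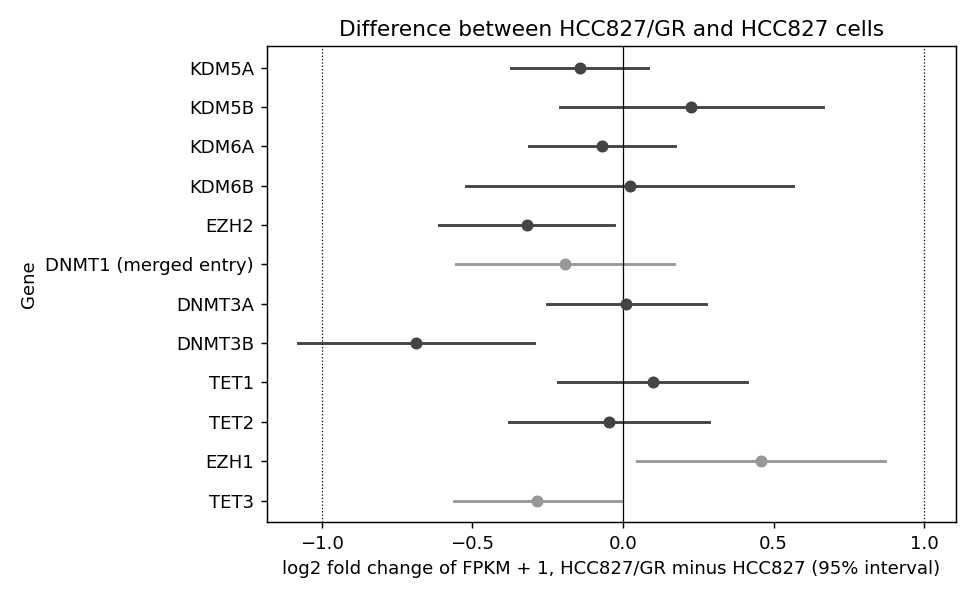
Log2 fold change of FPKM + 1 (x axis, GR minus GS) with its 95% interval from limma for each gene; dotted lines mark a 2-fold change. Black points are the 9 genes with an entry of their own, and grey points are the merged DNMT1 entry and the partners EZH1 and TET3. The intervals of 8 of the 9 genes lie within a 2-fold change, and that of DNMT3B does not.

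RefSeq windows (GRCh38, 250 bases before to 50 after a start) were searched on both strands for 8 motifs, of which 4 were of the E2F type (TTTCCCGC, TTTCGCGC, TTTGCCGC and TTTGGCGC). The E2F letters were singled out after the matches of all 8 were seen. They stood in 3.31% of 35116 windows and in 2 of the 20 windows of the 10 genes, 1 of EZH2 and 1 of DNMT1. Counted by gene, 3.99% of all symbols had them in any window, as did 12 of the 22 proliferation genes with a window. Of the other motifs, the GC box GGGCGG stood in 15786 of all windows and in 12 of the 20. The E-box CACGTG stood in 7.26% of all windows and in 4 of the 20. These belong to 3 genes, since overlapping DNMT3A windows share the same site. The letters TTTGAA stood in 15.2% of all windows and in 2 of the 20, and the letters TTCGAA in 1.45% of all windows and in 0 of the 20. The windows of EZH2 (chr7:148884242-148884541, minus strand), DNMT1 (chr19:10194904-10195203, minus strand) and DNMT3B (chr20:32779602-32779901, plus strand) are shown for the matches in the first and second, and because the third belongs to the gene with the largest difference. Capitals mark the E2F letters.
EZH2: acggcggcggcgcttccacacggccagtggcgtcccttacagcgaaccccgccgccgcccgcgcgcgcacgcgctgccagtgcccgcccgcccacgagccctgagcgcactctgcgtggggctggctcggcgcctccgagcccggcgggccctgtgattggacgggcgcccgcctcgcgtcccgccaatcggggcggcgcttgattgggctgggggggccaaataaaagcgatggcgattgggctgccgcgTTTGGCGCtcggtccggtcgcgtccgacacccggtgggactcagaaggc
DNMT1: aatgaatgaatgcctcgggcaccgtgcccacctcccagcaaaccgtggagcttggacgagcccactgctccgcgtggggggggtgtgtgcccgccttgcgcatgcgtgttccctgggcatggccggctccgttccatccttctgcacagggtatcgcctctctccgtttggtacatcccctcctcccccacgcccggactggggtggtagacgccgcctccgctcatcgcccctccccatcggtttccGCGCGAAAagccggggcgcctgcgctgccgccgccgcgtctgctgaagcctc
DNMT3B: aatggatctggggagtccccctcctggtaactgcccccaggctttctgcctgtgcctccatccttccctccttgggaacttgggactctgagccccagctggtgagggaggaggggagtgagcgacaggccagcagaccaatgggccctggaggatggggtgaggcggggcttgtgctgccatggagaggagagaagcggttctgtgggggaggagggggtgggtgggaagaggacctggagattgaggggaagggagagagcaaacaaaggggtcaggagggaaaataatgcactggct
The letters start at base 252 of the EZH2 window, and on the opposite strand at base 249 of the DNMT1 window. The start site of the DNMT1 window lies 36333 bases inside the GENCODE start of its gene, and that of the DNMT3B window 17467 bases inside. The DNMT3B window holds 3 CG pairs, against 46 in the EZH2 window and a median of 14 over all windows. A match shows only that the letters are there.

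The other PRC2 subunits, given by a list of 11 genes, had 0 called in either direction by limma, where 11.0% of all entries were called. Of the 11, 9 had a positive log2 fold change and the list's median was 0.17. With 1 library left out, that median ran from 0.067 (without GS replicate 3) to 0.27 (without GR replicate 2). SUZ12, a core subunit, was at 7.75 to 8.05 FPKM in GR and 6.37 to 6.39 in GS (log2 fold change 0.27, adjusted p = 0.117 by limma). RBBP7, a histone-binding subunit, was at 22.8 to 25.9 in GR and 17.5 to 18.6 in GS (0.39, adjusted p = 0.0860). The groups overlapped for EED (log2 fold change -0.04, adjusted p = 0.871 by limma) and for RBBP4 (0.17, adjusted p = 0.655). JARID2, which helps to bring PRC2 to chromatin, was the only one of the 11 with GR wholly below GS, at 2.66 to 3.01 against 3.05 to 3.31 FPKM. The groups were close, and its log2 fold change was -0.13 (adjusted p = 0.457 by limma). Groups did not overlap for 5 of the 11, 4 higher and 1 lower in GR, where 46.3% of all entries did not overlap. The share in the list was near that of the whole table. SUZ12, RBBP7, EED, RBBP4 and JARID2 were named after their values were seen.

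DNMT3B, a de novo DNA methyltransferase (chromosome 20, 32762385-32809356, plus strand), was at 1.45, 0.987 and 1.54 FPKM in GR replicates 1, 2 and 3 and at 2.92 and 2.54 in GS replicates 2 and 3. The lowest GS library was above the highest GR library. The ratio of the group means was 0.486, and the log2 fold change was -0.69 (SE 0.15, 95% interval -1.08 to -0.30). Its unadjusted p was 0.00667 and its adjusted p 0.0559 by limma, above the threshold of 0.05, and over the alternatives tried the adjusted p ran from 0.0532 to 0.367. The exact permutation p on the absolute difference was 0.1, the smallest that 3 libraries against 2 allow. A fold change with a pseudocount of 1 is drawn toward 0 at such levels, and the log2 ratio of the mean FPKM was -1.04.

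DNMT3A, the other de novo enzyme (chromosome 2, 25227855-25342590, minus strand), was at 1.81, 1.93 and 1.72 FPKM in GR and 1.92 and 1.68 in GS. Its groups overlapped, and the log2 fold change of 0.01 had a 95% interval from -0.25 to 0.28, or from 0.839- to 1.21-fold. The order of the pair therefore differed between the groups. The FPKM of DNMT3B divided by that of DNMT3A was 0.804, 0.512 and 0.897 in GR and 1.53 and 1.51 in GS, so DNMT3B was the lower of the pair in every GR library and the higher in both GS libraries.

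DNMT1, the maintenance enzyme (chromosome 19, 10133345-10231286, minus strand), could be read only from the merged entry, which holds 25 of its transcripts and 1 of S1PR2, a lipid receptor. That entry was at 26.1, 25.0 and 28.8 FPKM in GR and 27.1 and 34.3 in GS. The groups overlapped, and the log2 fold change was -0.19 (95% interval -0.55 to 0.17, adjusted p = 0.441 by limma), for DNMT1 and S1PR2 together.

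Of the TET enzymes, TET1 (chromosome 10, 68560656-68694482, plus strand) had the lowest level of the 9 genes, at 0.785, 0.813 and 0.717 FPKM in GR and 0.696 and 0.613 in GS. Its groups did not overlap, but they were close, and the log2 fold change was 0.10 (95% interval -0.21 to 0.41, adjusted p = 0.658 by limma). TET2 (chromosome 4, 105145875-105279816, plus strand) was at 2.25, 2.49 and 2.03 FPKM in GR and 2.65 and 2.08 in GS, which overlapped, with a log2 fold change of -0.05 (-0.38 to 0.28, adjusted p = 0.858). TET3, measured as their partner, was at 3.17, 2.59 and 2.82 FPKM in GR and 3.81 and 3.57 in GS, with a log2 fold change of -0.28 (SE 0.11, adjusted p = 0.177 by limma).

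Within each library, 8 pairs were compared by the log2 ratio of FPKM + 1, which for genes near 1 FPKM depends on the constant added. With 3 libraries against 2, the exact permutation test could not go below 0.1, so none could pass. The ratio of DNMT3B to DNMT3A was -0.28 ± 0.24 in GR (SD, n = 3) and 0.41 ± 0.018 in GS (SD, n = 2), a difference of -0.70 (exact permutation p = 0.1), or -1.02 with a constant of 0.1. EZH2 to EZH1 was 0.14 ± 0.25 in GR and 0.92 ± 0.27 in GS, a difference of -0.78 (exact permutation p = 0.1). EZH2 was above EZH1 in both GS libraries and in 2 of 3 GR libraries. KDM5B to KDM5A differed by 0.37 and EZH2 to KDM6A by -0.25, both without overlap (exact permutation p = 0.1 for each). The first was 0.15 and the second -0.08 without GS replicate 3. TET3 to TET2 differed by -0.24 without overlap (exact permutation p = 0.2), whereas KDM6B to KDM6A, DNMT1 to DNMT3A and TET2 to TET1 overlapped. Of all single entries 46.3% did not overlap, and the share for ratios of other genes was not computed.

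**Figure D3:**
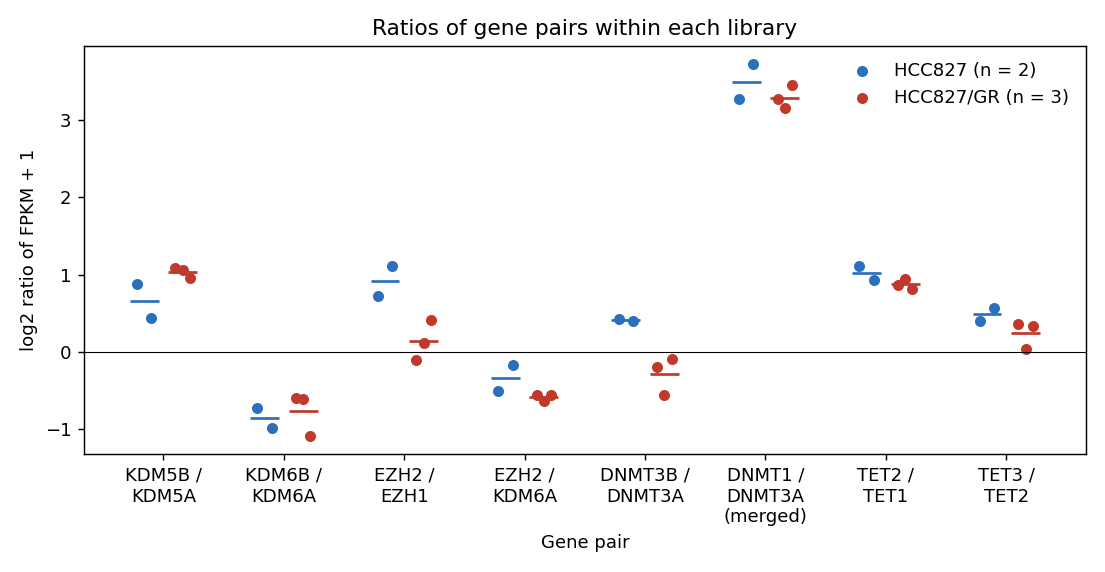
Log2 ratio of FPKM + 1 (y axis) for 8 gene pairs within each library, blue for HCC827 (n = 2) and red for HCC827/GR (n = 3), with bars at the group means. DNMT3B to DNMT3A lies above 0 in both GS libraries and below 0 in all 3 GR libraries.

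Genes with related roles were read from 9 lists with 129 genes, of which 117 were found under their symbol and 115 were tested. A total of 11 were called (9.57%), 5 higher and 6 lower in GR, where 5.26% of all entries were called higher and 5.71% lower. Groups did not overlap for 51 of the 115 (44.3%, against 46.3% of all entries), and 4 had a fold of at least 2 with a p under 0.05, where 6.94% of all entries did. The share called was near that of the whole table. With any 1 library left out, at most 2 of the 115 genes were called, and in the model with a library-size covariate and with the replicate number as a block 0 were. Of the genes named next, UHRF2 was called in 2 of 14 alternatives, SETDB2 in 3 and KMT2D in 4, while IDH2 was called in 9 and KDM1B in 8.

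The DNA methylation list had 12 of 14 tested genes with a negative log2 fold change and a median of -0.43. The genes called lower included UHRF2, a RING-type ubiquitin ligase related to UHRF1, at 3.87 to 4.50 FPKM in GR and 6.05 to 6.16 in GS (log2 fold change -0.49, adjusted p = 0.0486 by limma), and MBD1, a reader of methylated DNA, at 2.25 to 2.56 in GR and 3.85 to 4.12 in GS (-0.57, adjusted p = 0.0312). Called higher was IDH2, at 11.3 to 13.3 FPKM in GR and 4.28 to 5.54 in GS (log2 fold change 1.18, adjusted p = 0.0134 by limma). It is a mitochondrial enzyme that makes a cofactor of the TET, KDM5 and KDM6 enzymes.

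Among the Polycomb repressive complex 1 subunits, 2 of 17 were called, both higher, where 11.0% of all entries were called. PCGF2 was at 14.6, 9.97 and 12.6 FPKM in GR and 4.38 and 5.69 in GS (log2 fold change 1.14, adjusted p = 0.0318 by limma), and PCGF5 at 8.21, 9.13 and 9.44 in GR and 6.00 and 5.26 in GS (0.58, adjusted p = 0.0382). Of the other histone lysine demethylases, KDM1B, which acts on lysine 4 of histone H3, rose from 3.22 to 3.51 FPKM in GS to 6.67 to 7.71 in GR (log2 fold change 0.88, adjusted p = 0.0140 by limma). PHF8, which removes repressive histone methyl marks, fell from 4.75 to 4.82 FPKM in GS to 2.13 to 2.80 in GR (-0.75, adjusted p = 0.0256). Other calls were SETDB2, an H3K9 methyltransferase, which rose by 0.45, and SMARCA2, a SWI/SNF ATPase, which fell by 0.48. The entry named KMT2D, after an H3K4 methyltransferase, was also called and fell by 0.45. That entry holds 20 transcripts of PRKAG1 and 7 of KMT2D, so the value is for both genes together. No histone deacetylase and none of the BET proteins and histone acetyltransferases was called (0 of 14 and 0 of 9, where 11.0% of all entries were called). At an unadjusted p under 0.05, 29 of the 115 genes of all 9 lists passed in limma, where 27.2% of all entries did.

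**Figure D4:**
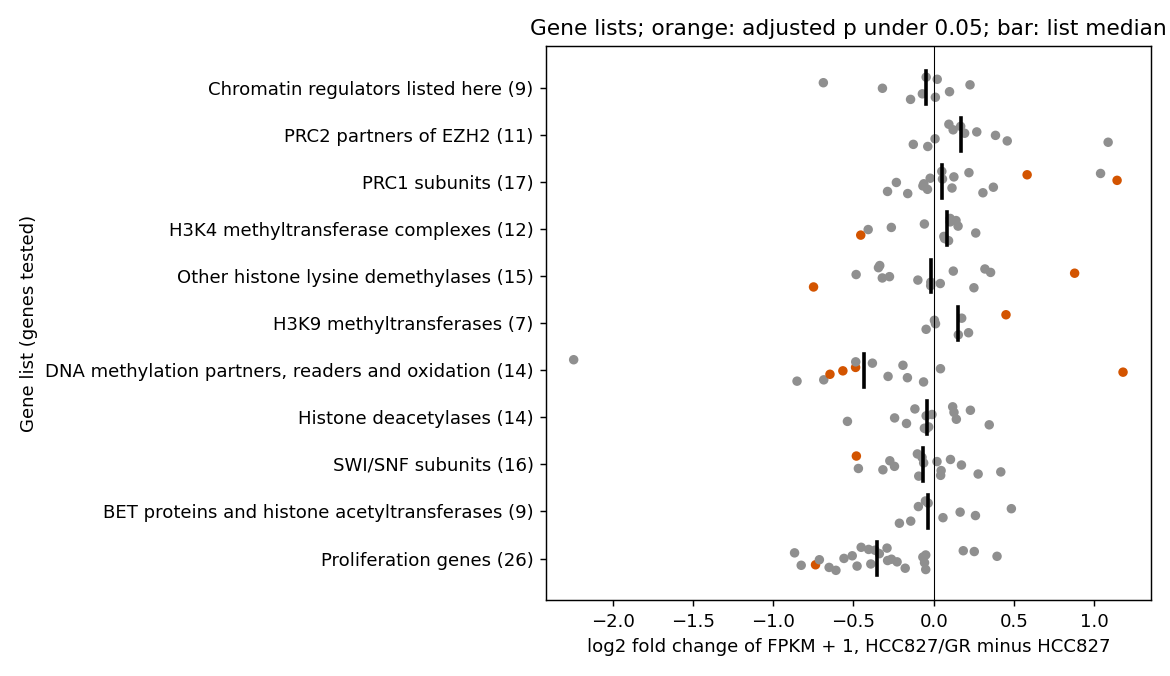
Log2 fold change of FPKM + 1 (x axis, GR minus GS) of each tested gene by list, with the number tested in parentheses. Orange points had an adjusted p under 0.05 and black bars are list medians. Most lists centre near 0, with the DNA methylation list at -0.43 and the proliferation list at -0.35.

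The proliferation genes lay on the same side as EZH2 and DNMT3B. Of 26 proliferation genes tested, 23 were negative, with a median log2 fold change of -0.35, and 1 of the 26 was called, TOP2A, a topoisomerase of dividing cells (-0.74, adjusted p = 0.0246 by limma), where 5.71% of all entries were called lower. Their summed level was 525.7 to 639.2 FPKM in GR and 674.8 to 835.9 in GS. The list's median was -0.12 without GS replicate 3 and -0.56 without GS replicate 2. Its part in the EZH2 and DNMT3B differences was not tested. In bulk samples, fewer cells of a type and less RNA per cell cannot be told apart.

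The label of a lung epithelial line was checked against 5 tested markers, which were all lower in GR and 4 of which were called. EPCAM fell by 3.04, CDH1 by 1.93, KRT19 by 1.52 and KRT18 by 0.93 on the log2 scale, and all 5 were present in every library. Markers of leukocytes, endothelium and red cells other than PECAM1 were at or under 0.267 FPKM in every library. The PECAM1 entry was listed at 0 in GR and at 3.32 to 4.34 FPKM in GS, but it is 1 assembled transcript with no annotated gene, and the entry with the annotated PECAM1 transcripts was at most 0.249 FPKM. Their part in the results was not tested. Libraries of the same cells correlated at 0.913 to 0.927 across entries and libraries of different cells at 0.851 to 0.873, and no library stood apart.

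**Figure D5:**
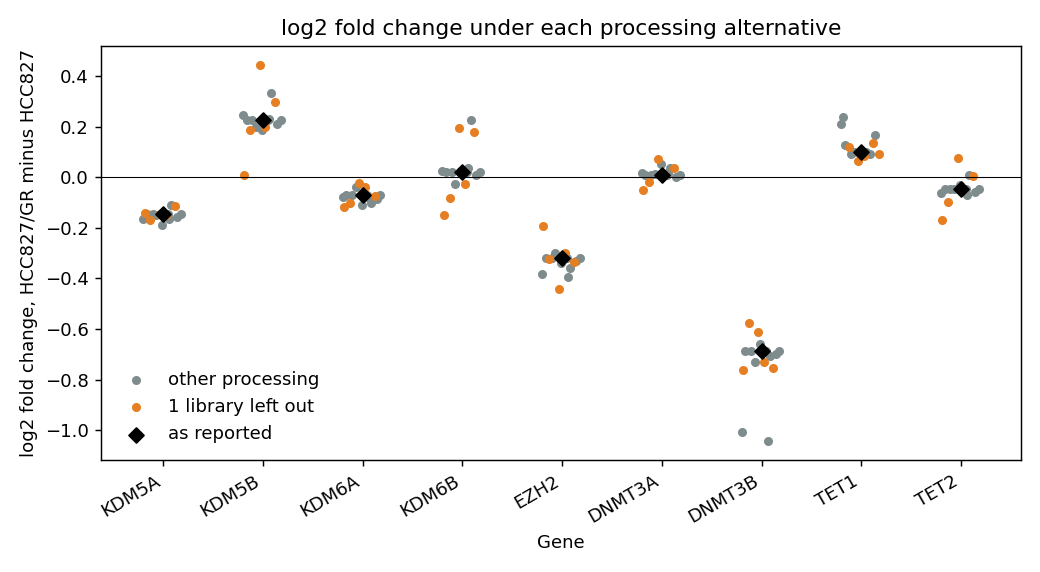
Log2 fold change (y axis, GR minus GS) of each of the 9 genes as reported (black diamond), under other processing (grey) and with 1 library left out (orange). EZH2, DNMT3B, KDM5A and KDM6A stay below 0 and KDM5B and TET1 stay above 0 in every alternative that tested them. KDM6B, DNMT3A and TET2 cross 0.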

How the data were processed

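RNA was sequenced from HCC827/GR (replicates 1, 2 and 3) and HCC827 (replicates 2 and 3) cells. The authors deposited FPKM values per gene or assembled locus, made per the paper with Cutadapt, Bowtie2, TopHat2, StringTie and Ballgown. FPKM holds no read counts, so the depth of the libraries is unknown. The submitters' processing notes name hg18, while positions here are from GENCODE release 29 (GRCh38), matched for 135164 of 135299 transcript identifiers. The labels describe a small-RNA, single-end library and the paper an rRNA-depleted, paired-end one. In the table, 1 FPKM column matched no sample and was not used.

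Values were taken as log2(FPKM + 1), the 16189 entries that averaged 0.5 FPKM or more over the 5 libraries were tested with limma 3.58.1 in R 4.3.3 (lmFit, eBayes with a trend, two-sided), and p was adjusted by Benjamini-Hochberg over all of them. Single values used an exact two-sided permutation test on the absolute difference of the means. On simulated data of 16189 entries, limma recovered 86 of 100 entries with a log2 change of 1 and 97 of 100 with a change of 2, with 9 false calls. The simulated noise was normal, independent and set by mean level alone, so entries of one level did not differ in spread. These counts check the fit and give no power for the real libraries. There were 14 alternatives (another pseudocount, filter, scaling, variance model, covariate, block or summing of entries, and each library left out) and 2 more chosen after seeing the data (the ratio of the mean FPKM, and the merged entry counted for DNMT1). The members and lists were chosen with earlier results of these data known. Named genes were the 10 members, EZH1, TET3, and the called genes of each list (at most 6 per list). SUZ12, RBBP7, EED, RBBP4 and JARID2 fall outside that rule. A called gene of the lists is left out of the text but stays in the counts. Summaries and plots were made in Python 3.11.15 (scipy 1.17.1, numpy 2.4.6, matplotlib 3.10.9, pandas 2.3.3).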

Additional observations from a re-analysis of the deposited data

How the results depend on the processing

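None of the 9 genes was called under any of the 14 alternatives across all entries or with the merged DNMT1 entry counted, except that TET1 could not be tested with a mean of at least 1 FPKM. For 6 of them the direction held in every alternative that tested them. TET2 was at 0.0078 in the Ballgown-type model and KDM6B at -0.028 with the replicate block. With 1 library left out, KDM6B ran from -0.15 to 0.20, DNMT3A from -0.051 to 0.072 and TET2 from -0.17 to 0.076. The number of entries called, 1775, was 15 in the Ballgown-type model, 0 with the replicate block and 432 to 884 with 1 library left out. At an unadjusted p under 0.05, 2782 entries passed in the Ballgown-type model and 3545 with the block, against 4410. The calls in the related lists, 11, were 3 with no filter on low values, 7 with entries of one symbol summed, 0 in the Ballgown-type model, 0 with the block, and 0 to 2 with 1 library left out; at an unadjusted p, 19 list genes passed in each of the 2 models with 0 calls. Deviations of libraries with the same replicate number correlated at 0.033 (replicate 2) and 0.015 (replicate 3). The deviations of the 2 GS libraries mirror each other, so these values cannot show whether the replicates were paired. FPKM gives no read counts, so the counting error of low genes such as TET1 is unknown.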

Other observations

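The genes beside each regulator on its chromosome were read from the same comparison, with the 10 nearest tested coding genes on each side. For DNMT3B the median log2 fold change of 20 neighbours was -0.06, with 0 called. For EZH2 it was 0.19, with 3 called higher and 1 lower. KDM5A lies near the end of chromosome 12 and had 10 neighbours in all, with a median of -0.22 and 2 called lower, and the median of its nearest 5 was 0.00088. DNMT3A had a neighbour median of 0.27, with 2 called higher.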
